A study of Mus musculus with 12 samples.

Results

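The genes described here encode the transferases that attach glucuronic acid, glutathione or sulfate to drugs, hormones, bile acids and products of oxidation. They were the genes whose single platform symbol started with Ugt1, Ugt2 or Sult, or with Gst, 1 of the letters a, k, m, o, p, t and z, and a digit, with the probe set of highest mean log2 value over all arrays standing for each gene. The rule found 41 of the 18193 genes measured: 8 Ugt2 genes, 20 Gst genes and 13 Sult genes. No Ugt1 gene was among them, because all 3 Ugt1a probe sets were annotated to 8 genes each.

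Expression was measured on 12 one-colour arrays in the lungs and livers of female NOD/SCID mice, which started the experiment at 8 to 10 weeks of age. NOD/SCID mice carry the Prkdc scid mutation on the NOD background and lack mature T and B cells, so virgin and pregnant groups shared this defect. The 4 groups were the lungs and the livers of virgin mice and of mice at day 16 of pregnancy, timed from the vaginal plug. Each group held 3 arrays, and each array measured whole-organ RNA pooled from 2 mice, so p-values measure the spread between pools. In whole-organ RNA, fewer cells of a type and less RNA per cell cannot be told apart. Per-array medians over all probe sets lay between 4.49 and 4.56 on the log2 scale, and arrays of the same group correlated at 0.992 to 0.996. The mean over 8 hepatocyte markers was 13.5 to 13.6 on the liver arrays and 4.01 to 4.69 on the lung arrays, and the mean over 4 club cell markers was 13.4 on every lung array. Poly-A spike-in probe sets averaged 11.9 to 12.4 on 10 arrays, but 4.99 on virgin liver pool 3 and 5.20 on pregnant liver pool 3. For the members that changed in liver and the pathway genes named, liver changes that differed by over 1.5 times between pools 1 and 2 together and pool 3 are therefore given for both.

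Conjugation makes a lipophilic molecule more soluble in water, so that it can leave in bile or urine. UDP-glucuronosyltransferases sit in the membrane of the endoplasmic reticulum of hepatocytes and use UDP-glucuronic acid. Soluble glutathione transferases come in classes named by Greek letters (alpha, kappa, mu, omega, pi, theta and zeta) and use glutathione to trap electrophiles. Cytosolic sulfotransferases use the activated sulfate PAPS to inactivate phenols, catecholamines, estrogens, hydroxysteroids and bile acids. In liver many of these genes are targets of HNF1, of the xenobiotic receptors and of Nrf2, a factor that binds antioxidant response elements.

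The 250 bases before the RefSeq start (GRCm38.p6) are shown for 4 genes: Ugt2b37, which had the largest fall among the members, Gstt3 and Gstp1, which rose most among the glutathione transferases, and Gsta3, whose window held an antioxidant response element core. Each is printed in the direction of transcription, and capitals mark the core, TGACNNNGC, where it was found on either strand. The windows are Ugt2b37 at chr5:87254789-87255038, Gstt3 at chr10:75781423-75781672 and Gstp1 at chr19:4037913-4038162, all on the minus strand, and Gsta3 at chr1:21240335-21240584 on the plus strand.
Ugt2b37: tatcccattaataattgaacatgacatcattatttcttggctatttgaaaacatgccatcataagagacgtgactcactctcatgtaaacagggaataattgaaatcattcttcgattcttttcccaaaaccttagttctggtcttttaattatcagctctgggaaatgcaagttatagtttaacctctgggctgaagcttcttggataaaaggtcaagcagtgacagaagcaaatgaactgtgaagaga
Gstt3: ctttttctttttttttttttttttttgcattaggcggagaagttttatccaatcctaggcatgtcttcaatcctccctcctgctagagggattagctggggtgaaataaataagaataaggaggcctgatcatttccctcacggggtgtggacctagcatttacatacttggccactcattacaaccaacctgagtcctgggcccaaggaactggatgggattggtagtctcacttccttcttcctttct
Gstp1: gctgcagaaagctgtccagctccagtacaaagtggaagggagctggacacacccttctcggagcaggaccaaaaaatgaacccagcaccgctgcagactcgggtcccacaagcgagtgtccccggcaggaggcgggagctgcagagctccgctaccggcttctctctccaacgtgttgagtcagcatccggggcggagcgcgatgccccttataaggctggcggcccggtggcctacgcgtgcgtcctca
Gsta3: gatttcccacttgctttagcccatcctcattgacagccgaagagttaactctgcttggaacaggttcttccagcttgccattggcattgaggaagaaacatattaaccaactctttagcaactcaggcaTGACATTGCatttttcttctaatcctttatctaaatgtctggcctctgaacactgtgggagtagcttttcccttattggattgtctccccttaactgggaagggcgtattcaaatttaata
Of the 41 members, 37 had a promoter window in the RefSeq table. The core occurred in the windows of 3 of them (8.11%), against 11.5% of 27025 genes. These 3 were Gsta3, with the core starting at position -121 from the transcription start, and Gstm5 and Gstm7. The long palindromic site named for HNF1 (GTTAAT and ATTAAC with 1 free base between them) matched in 0 of the 37 members and in 3 of all genes. A match is a description of letters only.

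The liver comparison asked what day 16 of pregnancy changed in the conjugation genes. Of the 41 members, 16 changed (limma, adjusted p under 0.05 over all genes), and 12 of these fell while 4 rose. The falls included the glucuronosyltransferase gene Ugt2b37, the catecholamine sulfotransferase gene Sult1d1, Sult5a1 and the theta class transferase gene Gstt1, and the rises were in Gstt3, Sult4a1, Gstp1 and Sult1c1. The members called made up 39.0% of the 41, against 13.6% of all genes, with 9.76% rising against 6.02% and 29.3% falling against 7.62%. In virgin and in pregnant liver, the group means of 33 members lay above the median over all probe sets. The share called among all genes of like level was not computed. The median change over the members was -0.13 on the log2 scale, against -0.01 over all genes. Virgin and pregnant pools did not overlap in 23 members (56.1%), against 28% of all genes. These included all 16 that changed, but the calls come from the same values, so this is no separate support. Among the 16, 12 kept their call in each of the 6 fits that left out 1 liver array.

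**Figure D1:**
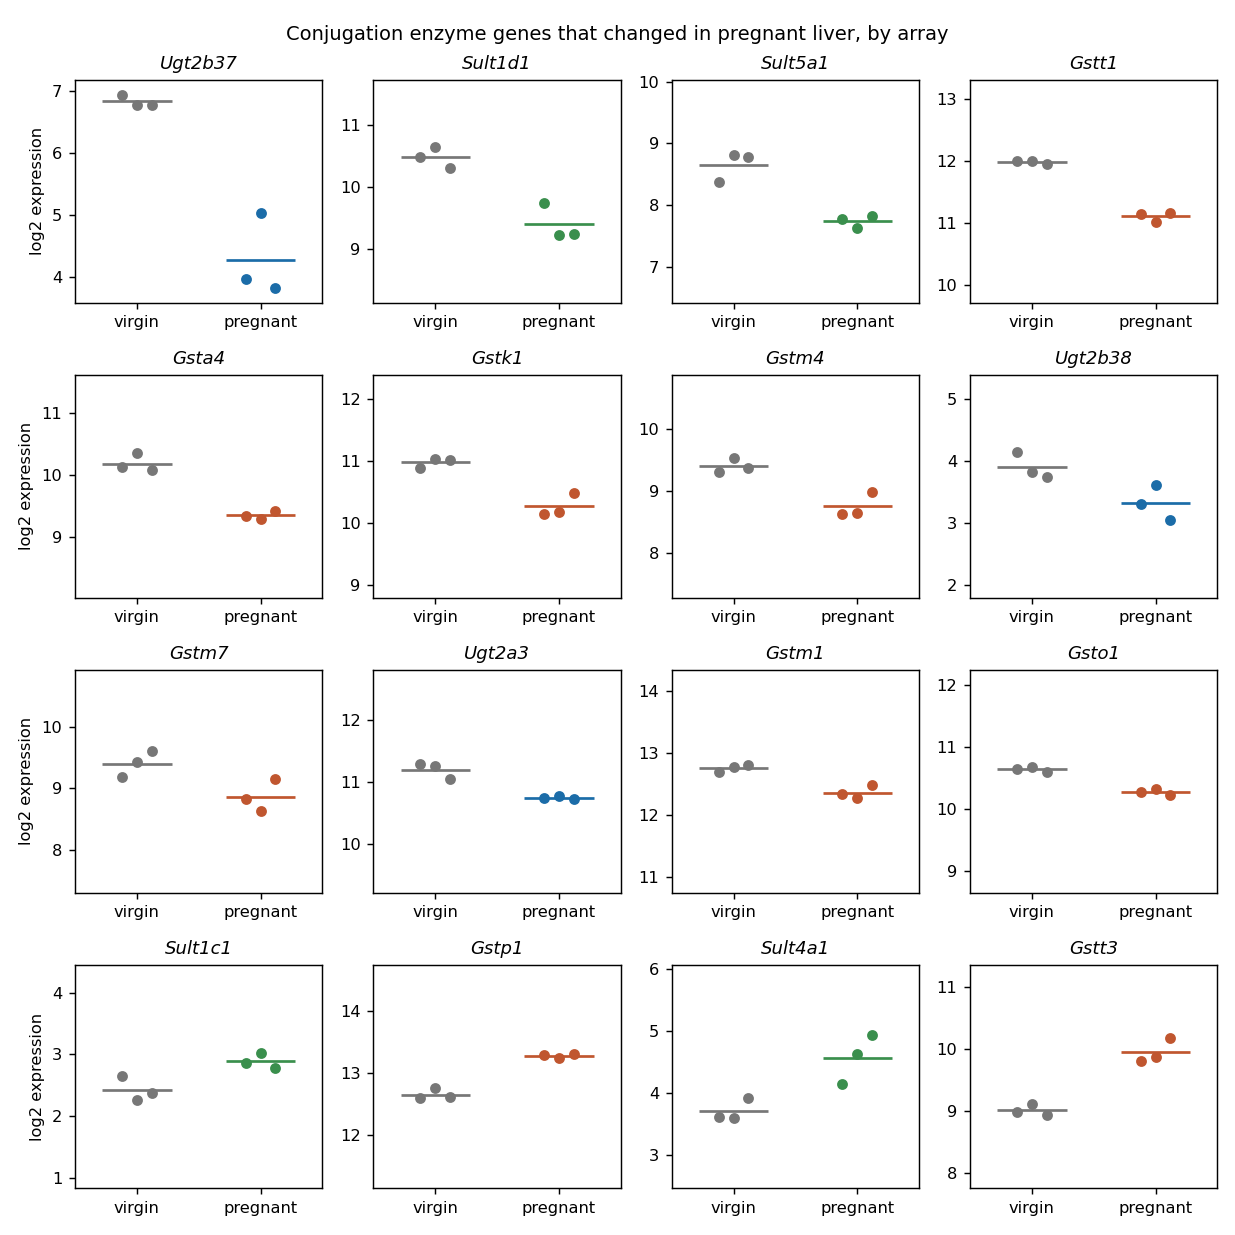
Log2 expression of the 16 conjugation enzyme genes that changed in pregnant liver, with 1 point per array (a pool of 2 mice), virgin in grey and pregnant in the colour of the family, and a line at each group's mean. In none of the 16 do the virgin and pregnant points overlap, and Ugt2b37 shows the widest gap, from a mean of 6.83 to 4.27.

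Among the glucuronosyltransferases, 3 of 8 Ugt2 genes fell and 0 rose, with a median log2 change of -0.30. Ugt2b37 had log2 values of 6.95, 6.78 and 6.78 in virgin liver pools 1 to 3 and of 3.96, 5.03 and 3.83 in the pregnant pools. All 3 pregnant pools lay well below the virgin pools, and pregnant pool 2 stood above the other two. The fall was 5.91-fold (log2 -2.56 ± 0.23, SE, n = 3 pools a group, limma adjusted p = 3.93e-06). The pregnant mean, 4.27 ± 0.66 (SD, n = 3), lay below 4.53, the median over all probe sets and arrays, and the files hold no detection calls.

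Ugt2a3, whose human counterpart glucuronidates bile acids, measured 11.29, 11.25 and 11.04 in virgin and 10.73, 10.77 and 10.72 in pregnant liver. The pregnant pools were close to each other and all lower. Its fall was 0.45 ± 0.10 on the log2 scale (limma adjusted p = 0.00889), with a change of -0.52 in pools 1 and 2 and of -0.32 in pool 3. Ugt2b38 measured 4.14, 3.83 and 3.74 in virgin and 3.31, 3.61 and 3.05 in pregnant liver, all below the median over all probe sets. Its log2 change of -0.58 ± 0.15 (limma adjusted p = 0.0184) lost the call without virgin liver pool 1 (-0.46, adjusted p = 0.0799) or without pregnant liver pool 3 (-0.44, adjusted p = 0.0652), with only liver arrays in the fit (0.0593) and without both liver pools 3 (0.0535).

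The other 5 Ugt2 genes did not pass the test, and their log2 changes ran from -0.32 for Ugt2b5 to 0.23 for Ugt2b35. Ugt2b5, Ugt2b36, Ugt2b1, Ugt2b34 and Ugt2b35 had log2 values from 10.31 to 12.93 on the liver arrays. Ugt2b34 measured 11.68, 11.69 and 11.72 in virgin and 11.41, 11.43 and 11.41 in pregnant liver, so its pools did not overlap, but its adjusted p was 0.373 in limma, whose fit takes 1 spread per gene over all 4 groups. Its lung values were more scattered, from 3.03 to 4.05. With only liver arrays in the fit, Ugt2b34 was not called either. A further Ugt2b34 probe set, fitted among all probe sets, changed by -0.52 ± 0.13 (limma adjusted p = 0.0255). The 3 Ugt1a probe sets shared by 8 genes had log2 changes of -0.16, -0.23 and -0.19 in liver (limma adjusted p = 0.333, 0.228 and 0.397).

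Of the 20 glutathione transferase genes, 7 fell and 2 rose, and the median log2 change was -0.19. The theta class held changes in both directions. Gstt1, which conjugates small halogenated alkanes, measured 12.0015, 11.9886 and 11.9413 in virgin and 11.15, 11.02 and 11.16 in pregnant liver. It fell 1.83-fold (log2 -0.87 ± 0.09, limma adjusted p = 1.18e-05), and the gap between the groups was many times the spread within them. Gstt3, another theta class gene, measured 8.98, 9.11 and 8.93 in virgin and 9.80, 9.87 and 10.18 in pregnant liver. It rose 1.92-fold (log2 0.94 ± 0.15, limma adjusted p = 0.000807), by 0.79 in pools 1 and 2 and by 1.25 in pool 3. Gstt2 and Gstt4 had log2 changes of 0.01 and 0.21 and did not pass the test.

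Gsta4, the alpha class transferase that removes the lipid peroxidation product 4-hydroxynonenal, measured 10.13, 10.35 and 10.08 in virgin liver and 9.34, 9.29 and 9.43 in pregnant liver. The lowest virgin pool was above the highest pregnant pool, and the log2 change was -0.84 ± 0.09 (limma adjusted p = 4e-05). The other alpha class genes did not pass the test: Gsta3 measured 11.96, 12.22 and 11.94 in virgin and 11.54, 11.33 and 12.02 in pregnant liver, where pool 3 lay among the virgin values. Gsta2, whose near copy Gsta1 had no probe set of its own, had a log2 change of 0.23 ± 0.15. Gstk1, the kappa class enzyme of mitochondria and peroxisomes, measured 10.88, 11.03 and 11.01 in virgin and 10.15, 10.17 and 10.48 in pregnant liver. Its fall of 0.71 ± 0.11 on the log2 scale (limma adjusted p = 0.000742) exceeded the spread between pools.

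Gstp1, the pi class transferase, rose in pregnant liver. It measured 12.59, 12.75 and 12.61 in virgin and 13.29, 13.24 and 13.30 in pregnant liver, and the pregnant pools lay close together above all virgin pools. The rise was 1.54-fold (log2 0.63 ± 0.08, limma adjusted p = 0.000156). Gstp2, a near-identical copy of Gstp1, had no probe set of its own here, so the signal may belong to either gene. Gstp3 did not pass the test, with a log2 change of -0.11 ± 0.13.

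Of the 7 mu class genes, 3 fell and 0 rose. Gstm4 measured 9.30, 9.53 and 9.38 in virgin and 8.63, 8.64 and 8.99 in pregnant liver, a log2 change of -0.65 ± 0.13 (limma adjusted p = 0.00321). Its change was -0.78 in pools 1 and 2 and -0.39 in pool 3. Gstm7 measured 9.18, 9.42 and 9.60 in virgin and 8.83, 8.63 and 9.15 in pregnant liver, so that virgin pool 1 and pregnant pool 3 nearly touched. Its change of -0.53 ± 0.15 (limma adjusted p = 0.0299) lost the call without virgin liver pool 2 (adjusted p = 0.0807) or 3 (0.113), or without pregnant liver pool 1 (0.0802) or 2 (0.118), and with only liver arrays in the fit (0.0729). The further Gstm7 probe set, fitted among all probe sets, changed by -0.45 and did not pass (limma adjusted p = 0.143).

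Gstm1 fell by 0.40 ± 0.09 on the log2 scale (limma adjusted p = 0.0125), and its 3 further probe sets had log2 changes of -0.58, -0.39 and -0.35, the last not past the threshold (adjusted p = 0.0611). The call was lost without pregnant liver pool 2 (adjusted p = 0.051). Gstm2, Gstm3, Gstm5 and Gstm6 did not pass the test, with changes of 0.07, 0.17, 0.12 and -0.49. Gsto1, an omega class enzyme that reduces dehydroascorbate, fell by 0.37 ± 0.08 on the log2 scale (adjusted p = 0.00976), while its further probe set had a change of -0.12. Gsto2 and the zeta class gene Gstz1, an isomerase of tyrosine breakdown, had changes of -0.22 and -0.16 and did not pass.

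Of the 13 sulfotransferase genes, 2 fell and 2 rose, and the median log2 change was 0.00. Sult1d1, which sulfates dopamine and other catecholamines in mice, measured 10.49, 10.64 and 10.30 in virgin and 9.73, 9.22 and 9.23 in pregnant liver. The fall was 2.11-fold (log2 -1.08 ± 0.18, limma adjusted p = 0.00116), and the further Sult1d1 probe set changed by -1.27. Sult5a1 measured 8.38, 8.82 and 8.77 in virgin and 7.78, 7.64 and 7.83 in pregnant liver. Every pregnant pool lay below every virgin pool, with a log2 change of -0.91 ± 0.13 (limma adjusted p = 0.000392).

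The sulfotransferase genes that rose were at low levels. Sult4a1, known from brain, measured 3.60, 3.59 and 3.92 in virgin and 4.14, 4.62 and 4.93 in pregnant liver, around the median over all probe sets. Its log2 change was 0.86 ± 0.17 (limma adjusted p = 0.003), but its further probe set had a change of -0.14 (adjusted p = 0.594), and with the mean of both probe sets the change was 0.36 (adjusted p = 0.0689). Sult1c1 measured 2.65, 2.27 and 2.37 in virgin and 2.86, 3.02 and 2.79 in pregnant liver, all well below that median. Its change of 0.46 ± 0.13 (limma adjusted p = 0.0322) lost the call without virgin liver pool 2 (0.38, adjusted p = 0.123) or 3 (0.43, 0.0923), or without pregnant liver pool 1 (0.47, 0.0648) or 2 (0.39, 0.11). It was also lost with only liver arrays in the fit (0.0585), with array weights (0.0632) and without both liver pools 3 (0.0875).

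The remaining 9 Sult genes did not pass the test in liver, among them the phenol sulfotransferase gene Sult1a1, with 12.23, 12.29 and 12.29 in virgin and 12.27, 12.17 and 12.27 in pregnant liver. The hydroxysteroid sulfotransferase genes Sult2a2 and Sult2a8 had log2 changes of -0.28 ± 0.11 and -0.26 ± 0.13. Several near-identical Sult2a genes and Sult3a2 had no probe set of their own, so the Sult2a2 and Sult3a1 signals may be shared. Sult1b1, Sult1c2, Sult1e1 (the estrogen sulfotransferase), Sult2b1, Sult3a1 and Sult6b1 had changes between -0.05 and 0.07. The estrogen sulfotransferase measured 2.86 to 3.25 on every liver array.

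**Figure D2:**
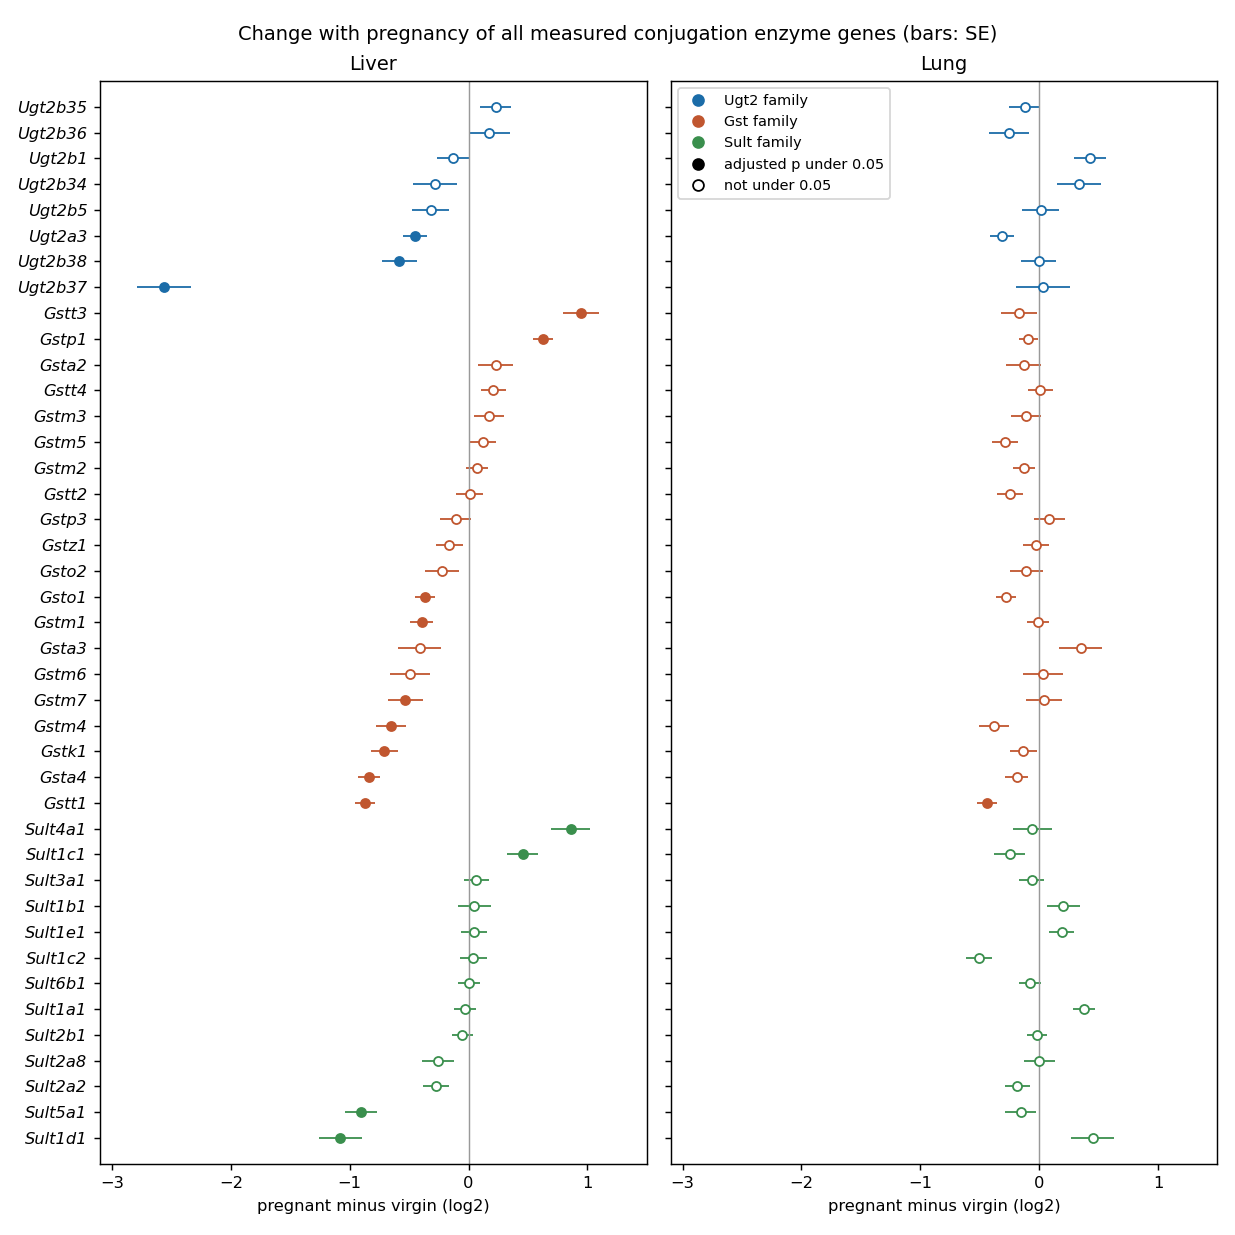
Log2 change from virgin to pregnant for all 41 members in liver and in lung, with bars of 1 SE on either side and filled points where the limma adjusted p was under 0.05. In liver 16 points are filled, from -2.56 for Ugt2b37 to 0.94 for Gstt3, and in lung 1, Gstt1 at -0.44.

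Many genes of these families lie in clusters, and members of 1 cluster differed in whether and how they changed; the order given is that of the measured members. In the theta class cluster, in the order Gstt3, Gstt1, Gstt4 and Gstt2 (RefSeq, GRCm38.p6), Gstt3 rose and Gstt1 beside it fell. The mu class cluster runs Gstm5, Gstm7, Gstm6, Gstm3, Gstm2, Gstm1 and Gstm4. In it Gstm7, Gstm1 and Gstm4 fell, while Gstm6, Gstm3 and Gstm2, which lie between Gstm7 and Gstm1, had changes of -0.49, 0.17 and 0.07 that did not pass the test. In the Ugt2 and Sult1 cluster Ugt2b37, Ugt2a3 and Ugt2b38 follow each other, and all 3 fell. Sult1d1 lies between Sult1b1 and Sult1e1, whose changes were 0.05 each.

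**Figure D3:**
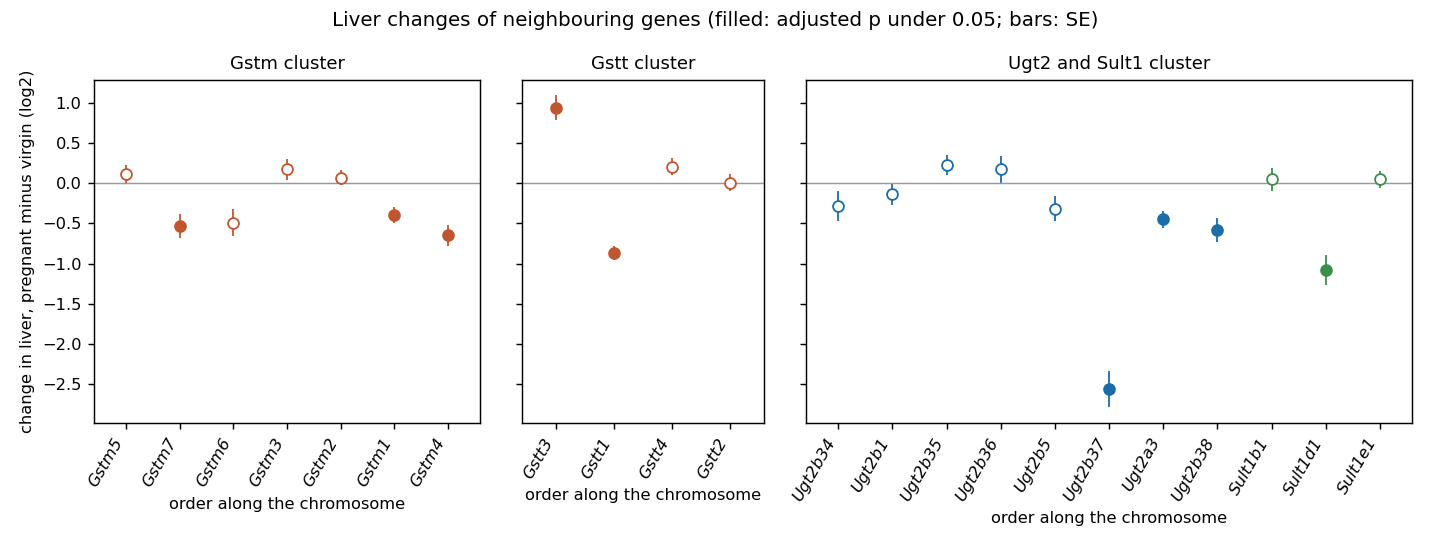
Log2 change in liver from virgin to pregnant (vertical axis, bars of 1 SE on either side) of the members of 3 gene clusters in the order in which they lie along the chromosome. Filled points have a limma adjusted p under 0.05. Gstt3 at 0.94 stands beside Gstt1 at -0.87, and Ugt2b37 at -2.56 stands beside Ugt2b5 at -0.32.

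The lung comparison asked the same question in lung, where the group means of 22 of the 41 members lay above the median over all probe sets. Of the 41 members 1 changed, Gstt1, a share of 2.44%, against 0.594% of all genes, of which 0.258% rose and 0.335% fell. Gstt1 measured 10.49, 10.53 and 10.34 in virgin and 9.96, 10.00 and 10.08 in pregnant lung, with no overlap between the groups. Its log2 change was -0.44 ± 0.09 (limma adjusted p = 0.0357). The call was lost without any 1 of the 6 lung arrays (change -0.50 to -0.40, adjusted p up to 0.168), without virgin liver pool 1 (0.0527) or pool 3 (0.052), and with only lung arrays in the fit (0.0697). Virgin and pregnant lung did not overlap in 12 members (29.3%), against 18.4% of all genes. An unadjusted p under 0.05 was found for 10 members. The share of all genes at that unadjusted threshold was not computed in either tissue.

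The next members by p were not past the threshold in lung. Sult1c2 measured 4.06, 3.89 and 4.11 in virgin and 3.68, 3.53 and 3.33 in pregnant lung (log2 -0.51 ± 0.11, limma adjusted p = 0.0634). Sult1a1 measured 9.71, 9.63 and 9.43 in virgin and 9.92, 10.04 and 9.95 in pregnant lung (log2 0.38 ± 0.09, adjusted p = 0.0908). For Gsto1 the values were 10.40, 10.45 and 10.31 in virgin and 10.12, 10.19 and 10.00 in pregnant lung (log2 -0.28 ± 0.08, adjusted p = 0.198). In each of these 3 genes the virgin and pregnant pools did not overlap. Sult1c2 passed with dim genes left out (limma adjusted p = 0.0472) and with array weights (0.0315). Its values lay below 4.53, the median over all probe sets, on every lung array. The fit without dim genes kept it only for its liver means, 8.14 in virgin and 8.18 in pregnant mice. Sult1a1 passed with a variance trend and robust moderation (limma adjusted p = 0.0126) and with array weights (0.0374). The median log2 change in lung was 0.01 for the Ugt2 genes, -0.12 for the Gst genes and -0.06 for the Sult genes, against -0.01 for all genes.

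Whether the change with pregnancy differed between liver and lung was tested as an interaction in the same fit. It differed in 9 of the 41 members (21.95%), against 6.71% of all genes, with 4 differences above 0 and 5 below; with quantile normalization, whether over all arrays or by tissue, the split was 5 and 4. For Ugt2b37 the liver change minus the lung change was -2.60 ± 0.32 on the log2 scale (limma adjusted p = 0.000211). Its lung means, 2.24 in virgin and 2.28 in pregnant mice, lay below the median over all probe sets. Signal above background was not shown there, so the difference rests on the fall in liver. Sult1d1 had a difference of -1.53 ± 0.26 (limma adjusted p = 0.00249), since its lung values, 6.59, 7.06 and 6.66 in virgin and 7.24, 7.53 and 6.89 in pregnant mice, gave a lung change of 0.45, not past the threshold by itself. Gstt3 had a difference of 1.11 ± 0.22 (adjusted p = 0.00649), and its lung change was -0.17. Gstp1 had a difference of 0.72 ± 0.12 (adjusted p = 0.00192): its lung values were 11.91, 11.80 and 11.79 in virgin and 11.71, 11.74 and 11.78 in pregnant mice. The difference in Gsta4 was -0.65 ± 0.13 (adjusted p = 0.00907).

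These 5 differences kept their call in each of the 12 fits that left out 1 array. Sult4a1 (0.92 ± 0.23, limma adjusted p = 0.0301), Sult5a1 (-0.75 ± 0.19, 0.0289), Sult1c1 (0.71 ± 0.18, 0.035) and Gstk1 (-0.58 ± 0.16, 0.0484) kept it in 5, 6, 4 and 2 of the 12. The lung means of Sult4a1 (2.76 in virgin, 2.71 in pregnant) and Sult1c1 (2.42 and 2.17) also lay below the median over all probe sets. Gstt1 fell in liver and in lung, and its difference of -0.43 ± 0.12 did not pass (adjusted p = 0.0521). Without pregnant lung pool 2 the number of members called was 5.

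**Figure D4:**
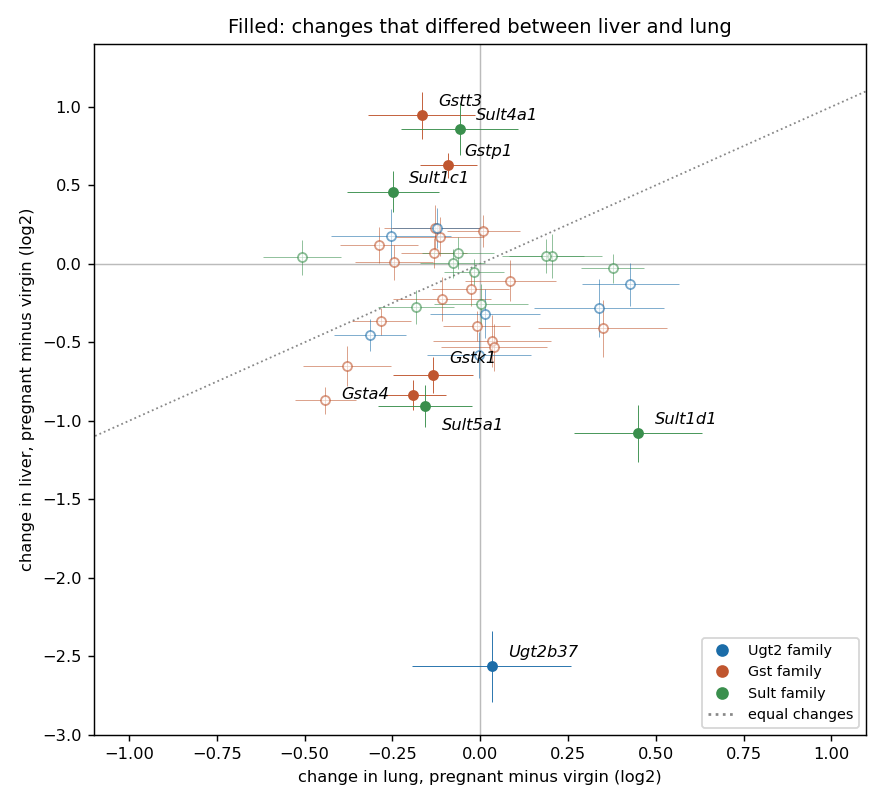
Change in liver (vertical) against change in lung (horizontal), both as pregnant minus virgin on the log2 scale with bars of 1 SE on either side, for the 41 members; the axes have different scales, and the dotted line marks equal changes. Filled points are the 9 members whose changes differed between the tissues by the limma interaction test, with Ugt2b37 lowest at -2.56 in liver and 0.03 in lung. The lung values of Ugt2b37, Sult4a1 and Sult1c1 lay below the median over all probe sets.

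The virgin tissues were compared to show where each family is expressed. Of the 41 members 37 differed (90.2%, against 68.7% of all genes): 35 were higher in liver, against 34.4% of all genes, and 2 were lower, against 34.3%. All 8 Ugt2 genes were higher in liver, with a median log2 difference of 8.58. The median was 1.35 for the 20 Gst genes and 2.68 for the 13 Sult genes, against 0.07 for all genes. Differences of at least 16-fold were found for 14 members and of at least 2-fold for 28. Shares of all genes at these folds were not computed.

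Ugt2b36 measured 12.71, 12.73 and 12.68 in virgin liver and 3.89, 3.85 and 4.01 in virgin lung, a log2 difference of 8.79 ± 0.17 (limma adjusted p = 5.96e-15). The lung values lay below the median over all probe sets, as did those of all 8 Ugt2 genes in every lung group. Sult2a2 measured 12.74, 12.61 and 12.60 in liver and 3.32, 3.05 and 3.27 in lung (log2 difference 9.44 ± 0.11, adjusted p = 3.78e-17). Sult3a1, which sulfates amines in mice, measured 12.70, 12.60 and 12.57 in liver and 2.44, 2.65 and 2.40 in lung. For genes whose lung values lay below that median, such as these 3, signal above background was not shown in lung, so the size and order of their differences depend on the background of each probe set.

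The glutathione transferases were more evenly spread, with 17 higher in liver, 1 lower and 2 not past the threshold. Gstz1 was 17.0-fold higher in liver (log2 4.09 ± 0.11, limma adjusted p = 1.86e-13), and Gsta3, with 11.96, 12.22 and 11.94 in liver and 9.91, 9.55 and 9.24 in lung, was 5.54-fold higher. Smaller differences were measured for Gstt1 (log2 1.52 ± 0.09), Gstk1 (1.17 ± 0.11), Gstm1 (0.83 ± 0.09) and Gstp1 (0.82 ± 0.08). Gsto1 differed by 0.26 ± 0.08 (adjusted p = 0.0146), and lost the call without virgin lung pool 3 (adjusted p = 0.0537) and with quantile normalization over all arrays (0.08, adjusted p = 0.431).

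Some members were as high in lung as in liver or higher. Gsta4 measured 10.13, 10.35 and 10.08 in virgin liver and 10.26, 10.22 and 10.13 in virgin lung, and these values overlapped (difference -0.01 ± 0.09, limma adjusted p = 0.904). In pregnant mice Gsta4 was lower in liver than in lung, by -0.66 (adjusted p = 2.03e-05). Gstm2, at 9.76, 9.96 and 9.78 in liver and 10.26, 10.18 and 10.22 in lung, was lower in liver (difference -0.39 ± 0.09, adjusted p = 0.00212). Sult2b1, the cholesterol sulfotransferase known from epithelia, was 4.04, 3.98 and 4.01 in liver and 4.64, 4.65 and 4.75 in lung (difference -0.67 ± 0.09, adjusted p = 7.25e-06). Gsto2, Sult6b1 and Sult1c1 did not differ beyond the threshold and lay below 4.53 on every array.

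In the pregnant tissues 37 members differed as well (90.2%, against 71.5% of all genes), 35 of them higher in liver. In both states 34 members were called, a count that was not made over all genes. The median log2 difference in the pregnant tissues was 8.22 for the Ugt2 genes, 1.53 for the Gst genes and 2.17 for the Sult genes. For Ugt2b37 the difference between the tissues went from 4.59 in virgin to 1.99 in pregnant mice.

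**Figure D5:**
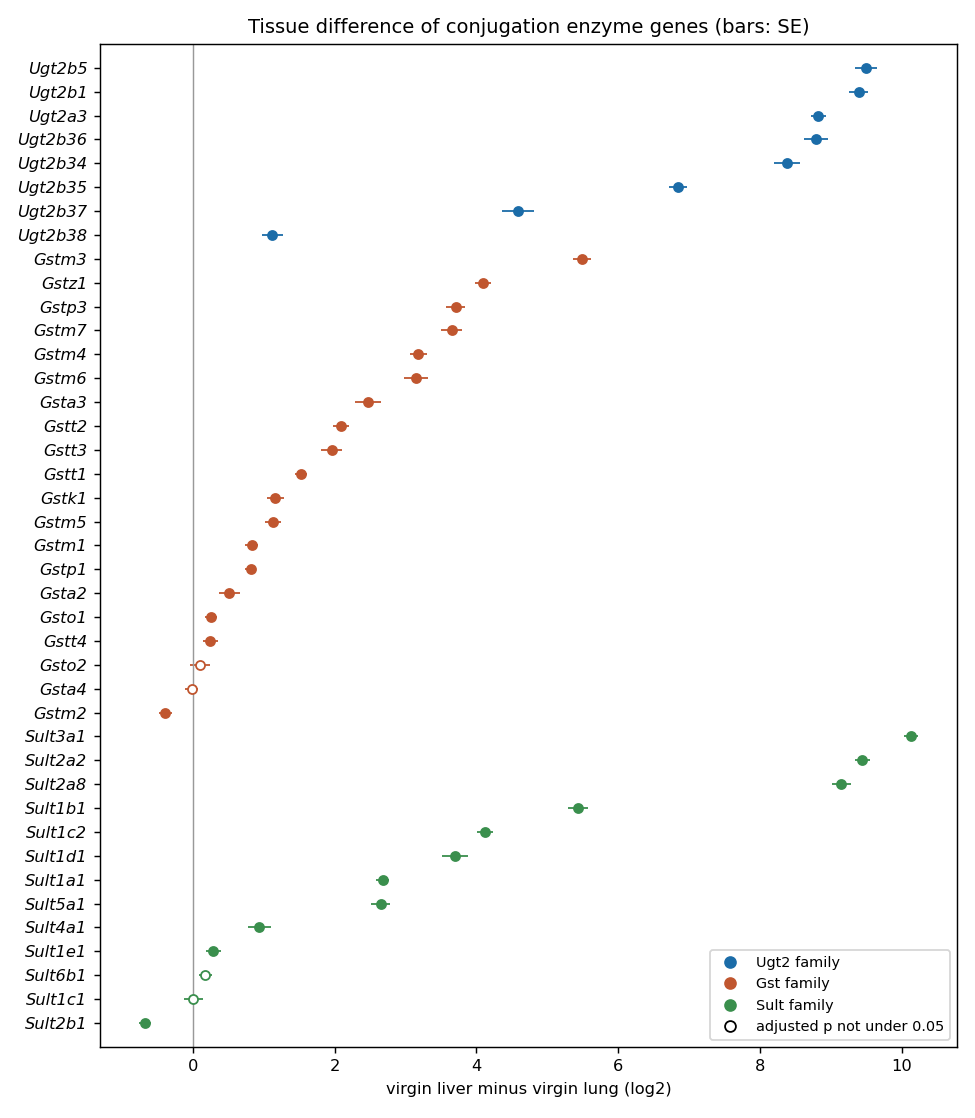
Log2 difference between virgin liver and virgin lung for the 41 members, by family, with bars of 1 SE on either side and open points where the limma adjusted p was not under 0.05. The Ugt2 genes span 1.12 to 9.49, and Gstm2 at -0.39 and Sult2b1 at -0.67 are the filled points below 0.

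The pathways that serve these enzymes were described with 9 lists holding 107 measured genes, 37 of which changed in liver, 7 up and 30 down, against 13.6% of all genes, 6.02% up and 7.62% down. In glucuronic acid supply and removal, 1 of 4 genes rose and 1 fell. Ugdh, which makes UDP-glucuronic acid, fell by 0.80 ± 0.13 on the log2 scale (limma adjusted p = 0.000645), from 10.36 ± 0.29 to 9.56 ± 0.13 (SD, n = 3), with a change of -0.92 in pools 1 and 2 and of -0.54 in pool 3. Gusb, the lysosomal beta-glucuronidase that removes glucuronic acid, rose 2.50-fold (log2 1.32 ± 0.09, adjusted p = 4.34e-07). Of 10 genes for sulfate supply and removal, 2 fell and 0 rose: Papss1, a synthase of PAPS, by 0.73 ± 0.10 on the log2 scale and Csad, an enzyme of taurine synthesis, by 1.19 ± 0.16.

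Of 17 genes of glutathione synthesis and turnover, 6 fell and 2 rose. Gpx3, the secreted glutathione peroxidase, rose 7.63-fold (log2 2.93 ± 0.11, limma adjusted p = 5.31e-10), from 6.15 ± 0.21 to 9.09 ± 0.09 (SD, n = 3). Gpx1, the cytosolic peroxidase, fell by 0.75 ± 0.08 (adjusted p = 3.97e-05), and Oplah, which returns 5-oxoproline to glutamate, by 0.69 ± 0.11. Of 8 membrane-bound and other glutathione transferase genes 2 fell, Mgst3 by 1.28 ± 0.16 and Gstcd by 0.42 ± 0.11 on the log2 scale. For Mgst3 the change was -1.53 in pools 1 and 2 and -0.79 in pool 3, and for Gstcd it was -0.57 and -0.13. The Gstcd call was lost without virgin or pregnant liver pool 1 or 2 (limma adjusted p up to 0.0865).

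Of 19 Nrf2 pathway genes 7 fell and 0 rose, and the median over the list was -0.01, equal to that of all genes at this rounding. The genes with the largest falls were Me1 (log2 -1.81 ± 0.11), Aox1 (-1.01 ± 0.11) and Pgd (-0.97 ± 0.14), which encode malic enzyme, aldehyde oxidase and a dehydrogenase of the pentose phosphate pathway. Pgd changed by -1.13 in pools 1 and 2 and by -0.66 in pool 3. Of 13 genes for export and uptake of conjugates 6 fell and 1 rose, with a median of -0.42. Abcc3, the pump that returns glucuronides to blood, fell 9.07-fold, from 9.72 ± 0.06 to 6.54 ± 0.26 (SD, n = 3). The uptake carrier gene Slco1a4 fell by 1.07 ± 0.18 (log2, adjusted p = 0.00138), by 0.73 in pools 1 and 2 and by 1.74 in pool 3, and Abcc4, another export pump, by 0.75 ± 0.11, with changes of -0.90 and -0.44.

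Among 12 genes listed as targets of xenobiotic receptors 4 fell and 2 rose. The cytochrome genes Cyp2b13 (log2 -1.62 ± 0.25) and Cyp2b10 (-1.17 ± 0.12), of which Cyp2b10 is induced through CAR, fell. Tiparp (0.83 ± 0.10), induced through the aryl hydrocarbon receptor, rose. The changes in pools 1 and 2 and in pool 3 were -1.83 and -1.21 for Cyp2b13 and -0.97 and -1.58 for Cyp2b10. Of 13 other conjugating enzymes 3 fell and 1 rose, with Inmt, an N-methyltransferase, at -1.47 ± 0.18, Baat, which joins bile acids to taurine or glycine, at -0.75 ± 0.18, and As3mt, the arsenite methyltransferase, at 0.66 ± 0.10. For Inmt the changes were -1.72 and -0.96, and for Baat -0.87 and -0.52; the Baat call was lost without virgin liver pool 1 or 2 (limma adjusted p up to 0.0508). In limma 0 of 14 regulators of conjugation genes passed in liver, where 6 had an unadjusted p under 0.05 and the smallest adjusted p was 0.0779, for the estrogen receptor gene Esr1 (log2 -0.34 ± 0.12). In lung 1 of the 107 genes passed, Ptges, the prostaglandin E synthase, which fell by 0.75 ± 0.13 on the log2 scale (limma adjusted p = 0.0214); of all genes 0.594% changed in lung. That call was kept in 1 of the 6 fits without 1 lung array, the one without pregnant lung pool 2.

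Markers of cell types were measured beside these changes. In liver 0 of 8 hepatocyte markers passed in limma (2 had an unadjusted p under 0.05), and their mean per array was 13.47 to 13.58 in virgin and 13.57 to 13.59 in pregnant mice. Of 4 measured cycling cell markers, 2 rose in liver, Mki67 by 0.95 ± 0.23 and Birc5 by 1.41 ± 0.42 on the log2 scale, and the mean over the 4 was 4.71 to 6.02 in virgin and 5.95 to 6.83 in pregnant mice. The Birc5 call was lost without virgin liver pool 1 or 3 and without pregnant liver pool 1 or 3 (limma adjusted p up to 0.162), and also without any of 4 lung arrays. Of 5 stellate cell markers, Lrat fell in both tissues and the others were not called. In liver, Timd4 fell among 5 Kupffer cell markers and Alas2 rose among 3 measured erythroid markers. The other markers of these lists were not called. Of 4 measured pancreatic acinar markers, Cela1 and Cela2a fell and Cpa1 rose in liver. Of the 4 club cell markers, which are not specific to club cells, Cyp2f2 fell and Aldh1a1 rose in liver. In lung the decidual marker Prl8a2 rose by 2.68 ± 0.13 on the log2 scale (limma adjusted p = 2.26e-07), 1 of 3 measured placental and decidual markers. Of the 4 cycling cell markers 0 passed in lung and 3 had an unadjusted p under 0.05, with a median change of -0.84, and their mean per array was 5.66 to 6.25 in virgin and 4.99 to 5.34 in pregnant lung. In lung 0 of 4 club cell and 0 of 4 alveolar type 2 markers passed in limma (0 had an unadjusted p under 0.05), and their means per array were 13.38 to 13.43 and 12.85 to 13.01. The part of other cell types in the member changes was not tested.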

How the data were processed

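Expression in lung and liver of virgin and pregnant mice was measured on 12 one-colour arrays, 3 per group. The deposited files hold log2 values made by the authors with RMA and the affy package, per the submitters' processing notes, which give no versions. RMA corrects background, equalises the arrays and summarises the probes of a probe set. It pulls low signals together, so small changes of dim genes are uncertain. Which arrays were normalized together is not given in the sources used here, and genome build and depth do not apply to these values.

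From these, 64 control probe sets were left out of 45101, and the 34945 with a single platform symbol gave 18193 genes. A limma 3.58.1 model of 4 group means was fitted in R 4.3.3 to all genes and 12 arrays (8 residual and 5.60 prior degrees of freedom). A gene was called at a two-sided p under 0.05 after Benjamini-Hochberg adjustment over all genes. Further probe sets of a gene, and those shared by several genes, were tested in a fit of all 45037 probe sets other than controls. The main model was tested on simulated data for the liver comparison only.

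The members and gene lists were chosen with earlier results of these data known. Members with values on every array were mostly chosen by rule. In liver these were up to 10 called members each with the largest rises and falls, and in lung the 4 with the smallest p. For the interaction they were the called members with the largest differences, and for the tissue comparison 1 or more of each family and class. Values of Ugt2b34, Gstm2, Sult2b1 and Sult3a1 were given outside this rule. Of the pathway lists, up to 3 called genes with the largest change were named. Gene order and promoter windows come from RefSeq (GRCm38.p6), in which all 41 members were matched by gene ID. Alternatives changed 1 choice at a time: threshold, arrays in the fit, dim genes, probe set choice, scaling, variance model, array weights, pool number, both liver pools 3 and each array.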

Additional observations from a re-analysis of the deposited data

Results flagged for a closer look

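In 9 members the change with pregnancy in liver differed from that in lung by the interaction test in limma (adjusted p under 0.05 over all genes), and each is given here as the liver change minus the lung change on the log2 scale. Among the glucuronosyltransferases the difference was -2.60 for Ugt2b37. Among the glutathione transferases it was 1.11 for Gstt3, 0.72 for Gstp1, -0.65 for Gsta4 and -0.58 for Gstk1. Among the sulfotransferases it was -1.53 for Sult1d1, 0.92 for Sult4a1, -0.75 for Sult5a1 and 0.71 for Sult1c1. The levels of Sult1c1 lay below the median over all probe sets on all 12 arrays. Those of Ugt2b37 and Sult4a1 did so on every lung array, where signal above background was not shown. A further Sult4a1 probe set gave a difference of -0.10 (limma adjusted p = 0.86 among all probe sets). Groups of 3 arrays are too small for a test of single outlying arrays.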

How the results depend on the processing

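The number of members called in liver, 16, was 13 to 17 when 1 array was left out and 12 to 17 under the other alternatives, except that 2 were called when a 2-fold change was also required. The lung count of 1 was 0 to 1 without 1 array. It was 0 at an adjusted p under 0.01, with a 2-fold threshold, with only the arrays compared, with arrays centred on the median, with pool number as a replicate block and without both liver pools 3, 2 with dim genes left out or with a variance trend and robust moderation, and 3 with array weights. The number of differences between tissues, 9, was 5 to 12 without 1 array, 5 at an adjusted p under 0.01 and 3 with a 2-fold threshold. The virgin tissue count of 37 was 34 to 37 without 1 array, and the pregnant one 36 to 38. Of the pathway genes, 37 were called in liver, 29 to 38 without 1 array, and 11 with a 2-fold threshold. In lung 1 was called, 0 to 1 without 1 array, 0 at an adjusted p under 0.01, with a 2-fold threshold or with the mean of all probe sets, and 2 with array weights. The Ugt2 median in liver was -0.36 with the mean of all probe sets and -0.38 without suffixed probe sets, and the Gst median -0.35 without them. The Ugt2 median in lung was -0.10 to 0.069 without 1 array. Where a cause is not the construction of the alternative (fewer genes, fewer arrays, a stricter threshold), the cause was not tested. Over the named members 885 alternative values were computed: 809 kept direction and side of the threshold, 72 kept direction and lost the call, 4 gained one and 0 reversed. Some alternatives could not reverse a direction. A stricter threshold or another variance model leaves the log2 change as it is. For a change within 1 tissue, so does leaving out an array of the other tissue.

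Same-numbered pools of different groups did not deviate together (correlations of deviations from the group means -0.11 to 0.11). The labels do not say that they pair mice. Virgin and pregnant liver pool 3 shared the lack of spike-in signal. With the replicate block, the counts were 16 in liver, 0 in lung, 7 for the difference and 37 for the virgin tissues. The difference between tissues was not run with the tissues fitted apart, nor tissue comparisons with quantile normalization within tissue. The alternative that fitted each probe set by itself was chosen after seeing the annotation. The number of arrays and the signal of dim probe sets limit the precision.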
